A study of Arvicanthis niloticus with 59 samples.

Results

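RNA levels in the cerebellum of Arvicanthis niloticus, the Nile grass rat, were compared with the 2 neighbouring parts of its hindbrain, the pons and the medulla oblongata. The members were the libraries whose titles name these sites, 3 of the 59 libraries in the series. All 3 came from a single animal, labelled T3F, whose tissue is described as healthy and untreated. There was 1 library of polyadenylated RNA for each site (cerebellum, pons, medulla oblongata), so no value below has a replicate of its own site. The series as a whole sampled 22 organs of 4 animals, and 6 other libraries of T3F covered the spinal cord, midbrain, thalamus with hypothalamus, hippocampus, caudal cortex and rostral cortex. Because the samples are whole pieces of tissue, fewer cells of a type and less RNA per cell cannot be told apart in any of these levels.

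The cerebellar cortex is built mainly from granule cells, small excitatory neurons whose axons, the parallel fibres, contact the large inhibitory Purkinje cells that carry the output of the cortex. Bergmann glia wrap the Purkinje cell synapses, and only a few kinds of local interneuron complete the circuit. The pons and medulla instead hold the motor neurons of the cranial nerves, the serotonin and noradrenaline cell groups, many glycine neurons and long myelinated tracts.

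The labels were first checked against the defining genes of each site. Gabra6, the granule cell subunit of the GABA-A receptor, stood at 683 TPM in cerebellum, 11.1 in pons and 1.41 in medulla. Cbln3, a secreted granule cell protein, stood at 2281 TPM in cerebellum, 54.02 in pons and 11.2 in medulla, and Pcp2, a Purkinje cell protein, at 303, 6.99 and 2.25 TPM in the same order. All 3 were thus far higher in the library labelled cerebellum than in both others. In the other 56 libraries of the series Gabra6 reached at most 1.03 TPM, in the spinal cord of T3F, and was listed at 0 in 49 of them. Cbln3 was less confined, with 79.8 TPM in the library labelled lung of T3F and 60.6 in the liver of T426. Both were above its level in pons, and its median over the 56 was 5.39 TPM. Pcp2 reached 74.6 TPM, in the right retina of T3F, with a median of 1.41 TPM. In turn Hoxb2, a patterning gene of the hindbrain behind the cerebellum, was listed at 0 in cerebellum and at 16.4 TPM in pons and 42.3 in medulla.

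Total expected counts were 22095366 in cerebellum, 19185382 in pons and 17710116 in medulla, and 14513, 14743 and 14780 genes reached 1 TPM in these libraries. Of 18970 genes in the tables, 11218 reached 10 TPM in at least 1 of the 3 libraries. A gene was counted as higher in cerebellum where it had at least 10 TPM there and at least 4 times the TPM of both pons and medulla, and as lower where both of these had at least 10 TPM and at least 4 times the TPM of cerebellum. By this rule of size 373 genes were higher (3.33% of 11218) and 238 were lower (2.12%). At 2-fold the counts were 1393 (12.4%) and 791 (7.05%). TPM and scaled counts were centred differently: the median log2 ratio over genes at 10 TPM was 0.27 against pons and 0.27 against medulla in TPM, and 0.00 and 0.02 in counts scaled by the TMM method. With TMM-scaled counts in place of TPM the same rule gave 257 higher and 278 lower genes, so that 48.0% of the calls lay on the higher side and not 61.0%. Small ratios of TPM below are to be read against that shift. The mitochondrial genes, which hold part of every TPM total, made up 11.2% of TPM in cerebellum, 16.2% in pons and 16.4% in medulla; their part in the shift was not tested.

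With 1 library a site, a test has to borrow its error from elsewhere. The quasi-likelihood test of edgeR over all libraries, which assumes that a lone library varies like the sites with libraries of different animals, called 0 of 18323 genes in either direction (0.0%) at an adjusted p below 0.05 and a 2-fold change. Its smallest Benjamini-Hochberg adjusted p was 0.417, for Itpr1, and 193 higher and 135 lower genes had an unadjusted p below 0.05. DESeq2 on the same libraries called 48 higher and 45 lower genes (0.273% and 0.256%), and limma on log2(TPM + 1) called 47 and 42 (0.251% and 0.225%). A second edgeR fit used the 9 brain and cord libraries of T3F alone, with pons and medulla standing in as replicates of each other and the 2 cortex libraries likewise. It called 1075 genes higher in cerebellum (6.83% of 15743) and 1261 lower (8.01%). Its p-values measure the spread between neighbouring sites of a single animal and say nothing of other animals. It rests on the same 3 libraries as the rule of size, so its calls are no independent support for the counts by size; it is named the neighbouring-site fit below.

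**Figure D1:**
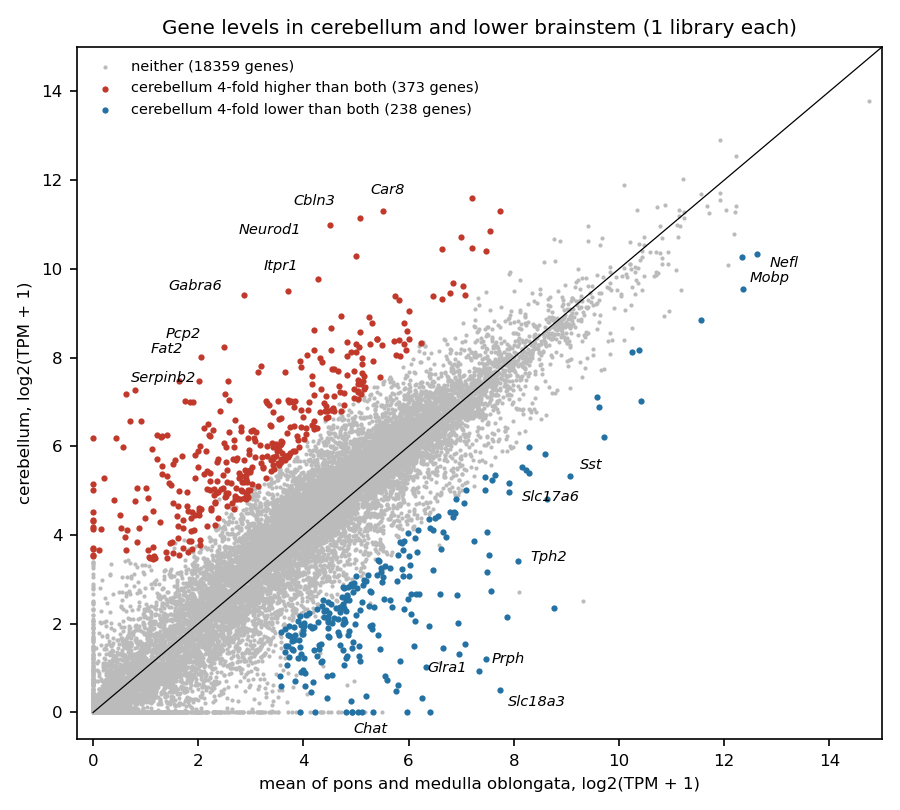
Each point is a gene, with its mean level in pons and medulla on the x axis and its level in cerebellum on the y axis, both as log2(TPM + 1) from 1 library a site; the line marks equal levels. The 373 genes at least 4-fold higher in cerebellum (red) and the 238 at least 4-fold lower (blue) lie off the line on either side, with Cbln3, Car8 and Neurod1 among the most abundant red points and Nefl and Mobp among the most abundant blue points.

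Granule cell genes were higher in cerebellum almost as a block. Of 25 listed genes, 21 were at least 4-fold higher than in both brainstem sites and 0 were 4-fold lower. The shares over all genes at 10 TPM were 3.33% and 2.12%. The neighbouring-site fit called 20 higher and 1 lower, against 6.83% and 8.01% of all genes it tested. These shares, with 12.4% and 7.05% at 2-fold, are the background for the counts of every list below. The median edgeR log2 fold change of the list was 3.38, against -0.02 over all genes tested. Neurod1, a basic helix-loop-helix factor of granule cell differentiation, stood at 2016 TPM in cerebellum, 30.002 in pons and 13.3 in medulla, a log2 fold change of 6.39 (SE 1.44). The transcription factors Zic1, Zic2, Zic5 and Pax6 were also highest in cerebellum, with Zic1 at 1694 TPM in cerebellum, 122 in pons and 129.99 in medulla. Barhl2, a homeobox gene, stood at 177, 2.29 and 1.91 TPM in cerebellum, pons and medulla, while its relative Barhl1 stood closer together at 27.9, 19.01 and 5.39 TPM. Gabrd, the delta subunit of extrasynaptic GABA-A receptors, had 74.98 TPM in cerebellum, 2.45 in pons and 0.816 in medulla, whereas the potassium channel gene Kcnd2, at 460.2, 156 and 148 TPM in the same order, did not reach a 4-fold difference. Slc17a7, which loads glutamate into vesicles at parallel fibre terminals, had 437 TPM in cerebellum, 87.7 in pons and 31.1 in medulla, and its counterpart of many brainstem neurons, Slc17a6, had 35.3, 224 and 256 TPM in the same order. Cerebellum was thus the highest of the 3 sites for Slc17a7 and the lowest for Slc17a6 (log2 fold changes 2.81, SE 1.98, and -3.02, SE 1.58). In hippocampus and caudal cortex of T3F Slc17a7 was higher still, at 680 and 821 TPM. Calb2, a calcium-binding protein of granule cells and of many brainstem neurons, was the listed gene that ran the other way, with 89.9 TPM in cerebellum, 210.2 in pons and 149.97 in medulla.

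The granule cell genes were not equally low in the brainstem sites. Gabra6 in pons was 1.63% of its cerebellum level and in medulla 0.207%, Fat2, a large cadherin of granule cells, was 2.22% and 0.219%, and Cbln3 was 2.37% and 0.492%. Eomes, which marks the unipolar brush cells of the granular layer, had 75.8 TPM in cerebellum, 2.48 in pons and 0.134 in medulla. These genes stood higher in pons than in medulla, and over the 21 granule genes that met the rule the median level was 8.91% of cerebellum in pons and 6.37% in medulla. Whether a little cerebellar tissue came with the pons was not tested.

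Purkinje cell genes showed the same direction with more shared expression. Of 28 listed genes, 18 were at least 4-fold higher in cerebellum and 0 lower; 20 were 2-fold higher, and the neighbouring-site fit called 19 higher and 0 lower. Car8, a binding partner of the inositol trisphosphate receptor, stood at 2536 TPM in cerebellum, 58.9 in pons and 29.9 in medulla. That receptor's gene Itpr1, which releases calcium from internal stores, stood at 877, 19.7 and 16.9 TPM in the same order, a log2 fold change of 5.33 (SE 0.87). Both were over 40 times the level of either brainstem site by TPM. Ppp1r17, a phosphatase inhibitor of Purkinje cells, had 725 TPM in cerebellum, 13.6 in pons and 10.6 in medulla, and Calb1, their main calcium buffer, had 325, 20.05 and 34.5 TPM. Among transcription factors of the list, Rora had 117 TPM in cerebellum, 14.4 in pons and 11.7 in medulla and Skor2 had 50.7, 3.17 and 7.997 TPM, and both met the rule. Lhx5 had 17.3, 12.4 and 17.4 TPM and Foxp2 10.5, 6.65 and 13.5 TPM in that order. Foxp2 and Lhx5 therefore did not separate the sites. Pcp4 and Aldoc, abundant in many neurons or astrocytes as well, were high in every library, at 7712, 4286 and 3459 TPM and 2677, 1639 and 1747 TPM.

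**Figure D2:**
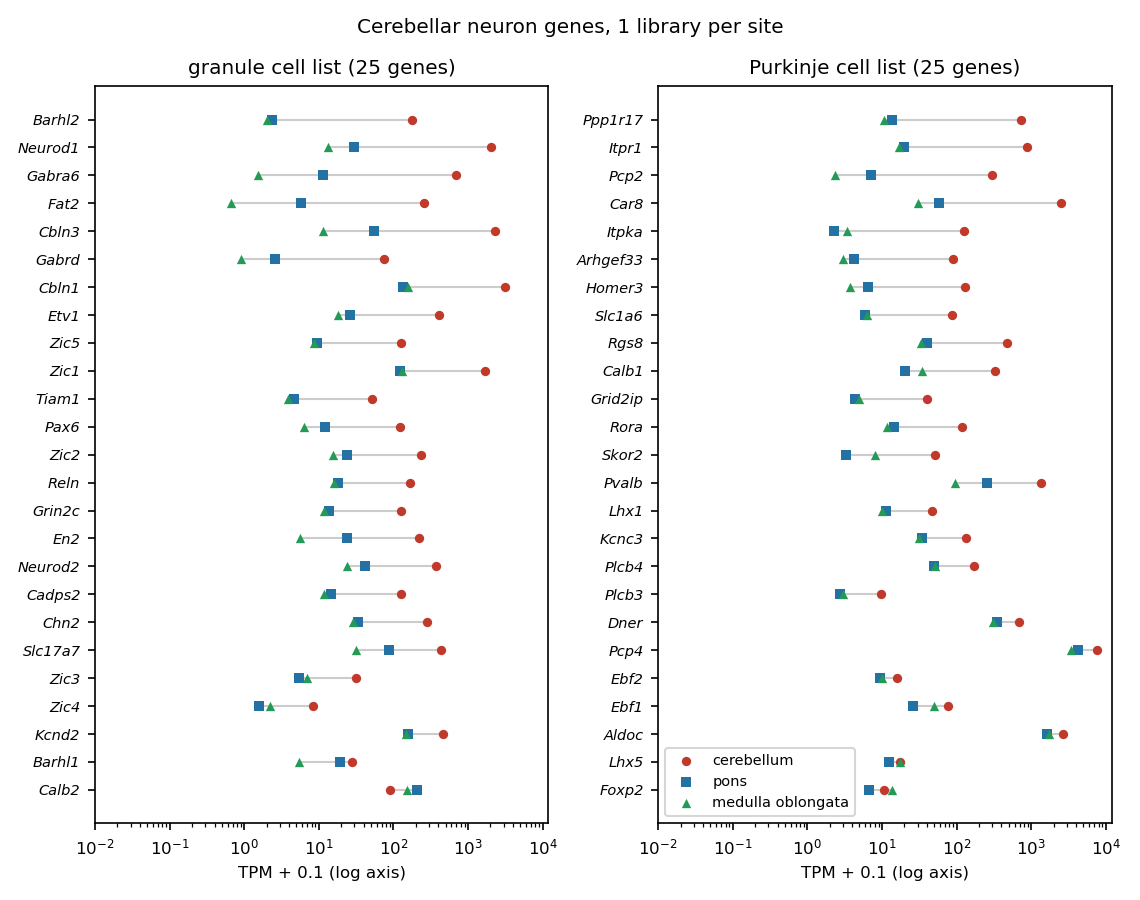
Levels of 25 granule cell and 25 Purkinje cell genes are shown as TPM + 0.1 on a log axis, with cerebellum as circles, pons as squares and medulla oblongata as triangles, 1 library each; genes are ordered by the ratio of cerebellum to the higher brainstem site. Circles lie to the right for nearly all genes, pons lies above medulla for Gabra6, Fat2, Cbln3 and En2, and Calb2 and Foxp2 at the foot of the lists do not follow.

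Genes of the parallel fibre synapse and of its long-term depression, the lasting weakening of that synapse, made up a list of 30 that overlaps the granule and Purkinje lists. Of these, 16 were 4-fold higher in cerebellum and 3 were 4-fold lower. Cbln1, a protein that granule cells secrete at this synapse, stood at 3119.6 TPM in cerebellum, 135 in pons and 159 in medulla. Its log2 fold change was 4.15 (SE 1.03; neighbouring-site edgeR adjusted p 0.00461). Rgs8, a regulator of G protein signalling, had 479 TPM in cerebellum, 40.3 in pons and 33.3 in medulla. Homer3, a scaffold of the Purkinje spine, had 131 TPM in cerebellum, 6.43 in pons and 3.64 in medulla, and Itpka, which phosphorylates inositol trisphosphate, had 128, 2.15 and 3.29 TPM. Itpka was not peculiar to cerebellum, with 293 TPM in hippocampus, 249 in caudal cortex and 196.5 in rostral cortex of T3F.

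The cerebellin family split between the sites. Cbln1 and Cbln3 were the high members in cerebellum, while Cbln2 had 3.94 TPM in cerebellum, 28.4 in pons and 36.9 in medulla and Cbln4 had 8.21, 87.1 and 88.4 TPM in the same order (log2 fold change of Cbln4 -3.68, SE 2.36). C1ql1, a related secreted protein that the climbing fibres of the inferior olive release in mouse, was lowest in cerebellum, with 5.37 TPM in cerebellum, 32.8 in pons and 113 in medulla. These are the 3 genes of the synapse list that were 4-fold lower.

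The rule that named the 10 genes with the largest edgeR fold changes brought forward several that belong to none of the lists. Mapk13, a stress-activated p38 kinase, stood at 152 TPM in cerebellum, 1.36 in pons and 0.116 in medulla. Tgm6, a transglutaminase, had 38.2 TPM in cerebellum, 0.184 in pons and 0.131 in medulla, and in the other 56 libraries it reached no more than 1.25 TPM. Serpinb2, a protease inhibitor, had 144, 0.643 and 0.463 TPM in cerebellum, pons and medulla, on 693, 3 and 2 expected counts. Neither Serpinb2 nor Mapk13 was peculiar to cerebellum in the series, since both had their highest other level in the nonglandular stomach, at 237 and 251 TPM. Nrk, a kinase, had 62.1, 0.827 and 0.149 TPM, and Crtam, a surface protein best known from T cells, had 93.97, 0.527 and 0.711 TPM. Aqp2, Oas1c and Mrln had 11.6, 16.6 and 71.5 TPM in cerebellum and at most 2 counts in either brainstem library, so no ratio is given for them. Gabra6 and Fat2 completed the 10, with log2 fold changes of 7.16 (SE 1.25) and 6.90 (SE 1.79).

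Several of the most abundant genes in the higher set lay outside the lists and were chosen after their values were seen. Adcy1, the calcium-stimulated adenylyl cyclase, had 1860.2 TPM in cerebellum, 165 in pons and 205 in medulla. Cnr1, the cannabinoid receptor found on parallel fibre and interneuron terminals, had 530.1 TPM in cerebellum, 64.4 in pons and 62.5 in medulla, and Cacnb4, a calcium channel subunit whose loss causes ataxia in mouse, had 634, 98.97 and 98.9 TPM. Adcy1 was also high in caudal cortex, at 1276 TPM, and in hippocampus, at 858 TPM. Cnr1 stood at 266 TPM in hippocampus and 190 in rostral cortex, and Cacnb4 at 312 TPM in caudal cortex. Nrep, a small neuronal protein, had 1386 TPM in cerebellum, 111 in pons and 86.6 in medulla and between 75.8 and 114 TPM in the other 6 sites of T3F.

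Glia of the cerebellar cortex were represented by 10 Bergmann glia genes, of which 3 were 4-fold higher, 6 were 2-fold higher and 0 were 4-fold lower. Gdf10, a growth factor of the TGF-beta family made by Bergmann glia, stood at 1254 TPM in cerebellum, 27.8 in pons and 33.9 in medulla (log2 fold change 5.09, SE 1.64). Slc1a3, the glutamate transporter GLAST, had 314 TPM in cerebellum, 44.1 in pons and 30.9 in medulla, and Wif1, an inhibitor of Wnt signalling, had 72.97, 0.766 and 2.14 TPM in the same order. General astrocyte genes did not follow: 0 of 12 were 4-fold higher and 1 was lower, the GABA transporter gene Slc6a11, with 36.8 TPM in cerebellum, 227 in pons and 157 in medulla. Interneuron genes were mixed, with 3 of 14 higher (Eomes, Tfap2b and Kit) and 1 lower (Slc6a5). Kit, a receptor of molecular layer interneurons, had 164 TPM in cerebellum, 15.6 in pons and 33.7 in medulla.

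Among 37 hindbrain transcription factors 3 were 4-fold higher (En2, Lhx1 and Pax3) and 2 were 4-fold lower (Meis2 among them). Only 23 of the 37 reached 10 TPM at any of the 3 sites, and the shares over all genes at 10 TPM were 3.33% and 2.12%. The neighbouring-site fit called 4 higher and 9 lower of 35 tested, against 6.83% and 8.01% of all genes it tested. En2, a homeobox gene that stays on in adult cerebellum, had 219 TPM in cerebellum, 23.6 in pons and 5.57 in medulla, and its relative En1 had 53.4, 34.7 and 3.41 TPM in the same order. The Meis pair, cofactors of Hox proteins, ran in opposite directions. Meis1 had 83.8 TPM in cerebellum, 41.7 in pons and 42.5 in medulla, whereas Meis2 had 1.81, 34.4 and 30.2 TPM in the same order (log2 fold change of Meis2 -4.41, SE 1.91).

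Receptor subunit genes of a single family differed in both directions. The GABA-A receptor is a chloride channel assembled from the products of different subunit genes. Of 16 subunit genes 2 were 4-fold higher in cerebellum (Gabra6 and Gabrd) and 3 were 4-fold lower (Gabra2, Gabra5 and Gabrq); at 2-fold the counts were 5 and 4. Gabra2, an alpha subunit, had 3.57 TPM in cerebellum, 26.3 in pons and 35.6 in medulla, and Gabrb2, a beta subunit, had 137, 43.3 and 25.3 TPM in the same order. Gabrq, a subunit of serotonin and noradrenaline cell groups, had 1.68 TPM in cerebellum, 40.5 in pons and 44.8 in medulla, and Gabra3 had 26.3, 81.8 and 101 TPM. In the RefSeq annotation of this species Gabrb2 and Gabra6 are neighbours on chromosome 6, and both were highest in cerebellum. Gabre, Gabra3 and Gabrq lie close together on the X chromosome, and all 3 were lowest in cerebellum.

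More glutamate receptor genes were higher than lower in cerebellum. Of 25 genes 4 were 4-fold higher and 0 were 4-fold lower, and the neighbouring-site fit called 8 and 4. Grm4, the presynaptic metabotropic receptor of parallel fibres, had 203 TPM in cerebellum, 8.26 in pons and 7.38 in medulla (log2 fold change 4.44, SE 1.09; neighbouring-site edgeR adjusted p 0.00370). Grin2c, the NMDA receptor subunit of mature granule cells, had 128 TPM in cerebellum, 13.6 in pons and 11.5 in medulla, while Grin2b, which precedes it in development, had 4.94, 8.59 and 10.01 TPM in the same order. Grm5, a metabotropic receptor that signals through Gq, was low in cerebellum, with 11.9 TPM in cerebellum, 39.4 in pons and 40.8 in medulla.

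**Figure D3:**
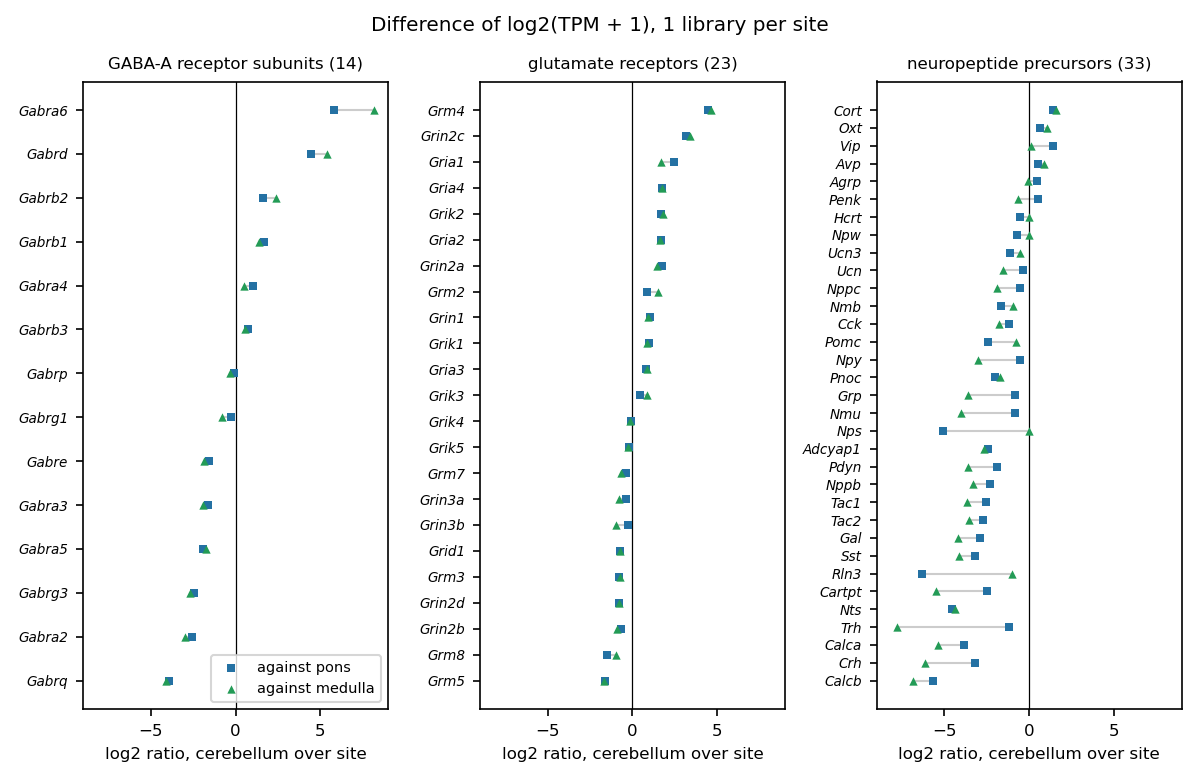
Each row is a gene, and the x axis gives the difference of log2(TPM + 1), cerebellum minus pons (squares) and cerebellum minus medulla (triangles), for 14 GABA-A receptor subunits, 23 glutamate receptors and 33 neuropeptide precursors, 1 library a site. Receptor subunits spread to both sides of 0, with Gabra6, Gabrd, Grm4 and Grin2c farthest right, whereas most peptide genes lie to the left; Rln3 and Nps stand apart against pons only and Trh against medulla.

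Genes of cholinergic and motor neurons and Hox genes had the largest fold changes among the genes lower in cerebellum. Chat, the enzyme that makes acetylcholine, had 0 expected counts in cerebellum and 26.1 TPM in pons and 37.2 in medulla, on 178 and 236 counts. Set against a limit of 3 counts for the empty library, Chat was at least 68.3-fold lower in cerebellum than in pons and at least 98.1-fold lower than in medulla, counting error only. Slc18a3, the vesicular acetylcholine transporter, had 0.427 TPM in cerebellum, 158 in pons and 266 in medulla, with a single count in cerebellum. Slc18a3 lies next to Chat in the RefSeq annotation, which lists no overlap between them. Whether reads were shared between the genes was not tested. Slc5a7, the choline transporter, is separate and had 1.73 TPM in cerebellum, 77.99 in pons and 123 in medulla. Of 11 cholinergic and motor neuron genes 6 were 4-fold lower and 0 were higher. Prph, the peripherin filament of motor and sensory axons, had 0.911, 97.9 and 225 TPM, and Chodl, a surface protein of fast motor neurons in mouse, had 0.254 TPM in cerebellum, 73.3 in pons and 77.2 in medulla. Calca and Calcb, the paralogous genes of calcitonin gene-related peptide, were both listed at 0 in cerebellum, with 13.6 and 50.7 TPM in pons and 40.5 and 116 TPM in medulla; reads of near-identical stretches may be split between them.

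Serotonin neuron genes were low in cerebellum. Tph2, the rate-limiting enzyme of serotonin synthesis in neurons, had 9.71 TPM in cerebellum, 331 in pons and 206 in medulla (log2 fold change -5.01, SE 3.44; neighbouring-site edgeR adjusted p 0.00658). Fev, the transcription factor of serotonin neurons, was listed at 0 in cerebellum and at 20.6 TPM in pons and 14.7 in medulla. The serotonin transporter Slc6a4 had 0.0207, 12.2 and 6.93 TPM in cerebellum, pons and medulla, so that Tph2, Fev and Slc6a4 were all highest in pons. Of 10 genes in the list 5 were 4-fold lower, and the neighbouring-site fit called 9. The noradrenaline enzyme and transporter genes were scarce at all 3 sites: Dbh had 0.141 TPM in cerebellum, 3.02 in pons and 1.54 in medulla, and the noradrenaline transporter Slc6a2 had 0.0639, 5.34 and 0.953 TPM. Their low level in pons, which holds the locus coeruleus, kept Dbh, Th and Slc6a2 below the 10 TPM minimum. Of the 9 genes in the noradrenaline neuron list 4 reached 10 TPM at any of the 3 sites. All 4 were at least 4-fold lower in cerebellum, and 0 were higher. The list shares Ddc and Slc18a2 with the serotonin list.

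Of 9 genes of glycine and GABA transmission 3 were 4-fold lower in cerebellum (Slc6a5, Glra1 and Glra2) and 0 were 4-fold higher. Glra1, the adult alpha subunit of the glycine receptor, had 1.29 TPM in cerebellum, 149 in pons and 203 in medulla, a log2 fold change of -7.29 (SE 2.14). Slc6a5, the transporter of glycine neurons, had 15.8 TPM in cerebellum, 166 in pons and 189.5 in medulla. In cerebellum that transporter is known from Golgi and Lugaro interneurons. Gad1, an enzyme of GABA synthesis, was at least 2-fold higher in cerebellum, with 287 TPM in cerebellum, 121 in pons and 101 in medulla, and Slc32a1, which loads both transmitters into vesicles, was level at 110.4, 119 and 103 TPM.

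Genes of large axons were lower in cerebellum, in 7 of 13 cases by 4-fold. Nefl, the light neurofilament, had 1288 TPM in cerebellum, 6046 in pons and 6516 in medulla, Nefm had 278, 1219.9 and 1210.2 TPM and Nefh had 288, 1409.7 and 1250.5 TPM in the same order. The 3 subunits therefore kept similar proportions across the sites. Sncg, a synuclein of motor and sensory neurons, was more uneven, with 1.93 TPM in cerebellum, 76.97 in pons and 189.5 in medulla. Kcnc1, a fast potassium channel that granule cells also use, ran the other way with 950.2, 243 and 237 TPM.

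**Figure D4:**
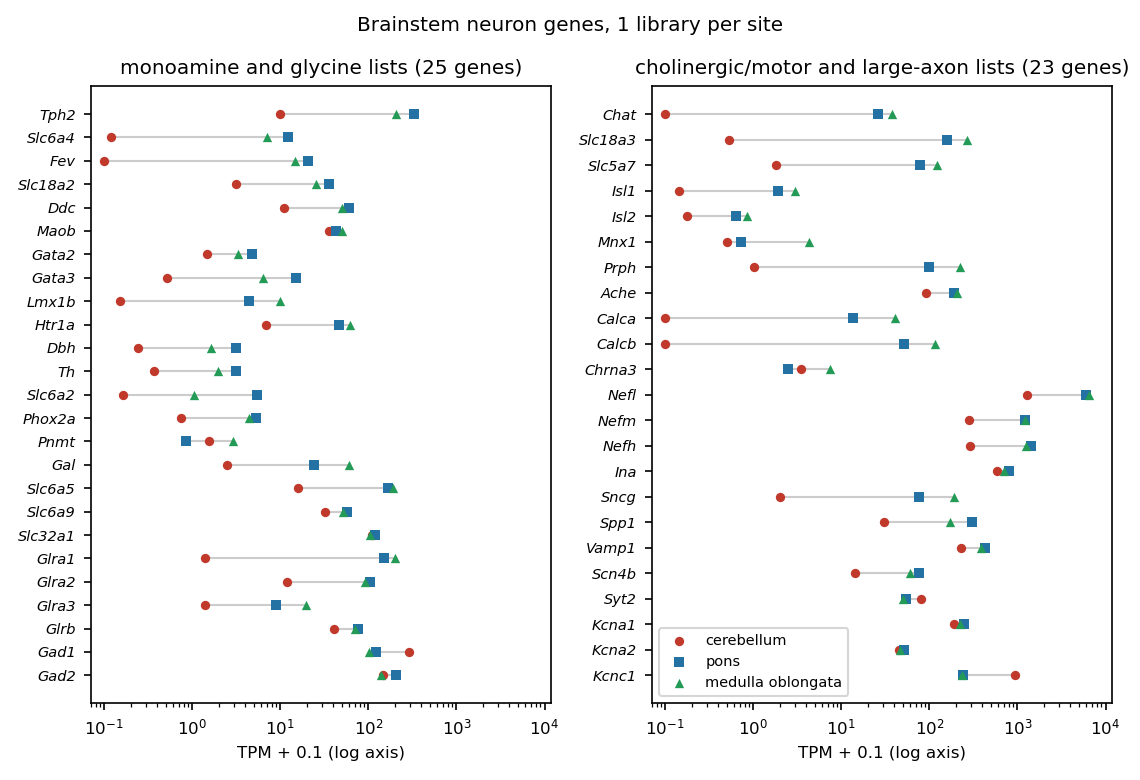
Levels of 25 genes of serotonin, noradrenaline and glycine neurons and of 23 genes of cholinergic or motor neurons and large axons are shown as TPM + 0.1 on a log axis, with cerebellum as circles, pons as squares and medulla oblongata as triangles, 1 library each; a circle at 0.1 is a gene listed at 0. Chat, Calca, Calcb and Fev sit at that floor in cerebellum, and Gad1, Syt2 and Kcnc1 have their circle on the right.

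Neuropeptide genes were mostly lower in cerebellum or low at all 3 sites. Of 33 precursor genes measured, 0 were 4-fold higher, 10 were 4-fold lower and 14 were 2-fold lower; the neighbouring-site fit called 0 higher and 8 lower. Sst, somatostatin, had 39.5 TPM in cerebellum, 365 in pons and 704 in medulla, and Nts, neurotensin, had 2.84, 88.2 and 77.8 TPM in the same order. Crh, the stress peptide that inferior olive neurons also make, had 1.04 TPM in cerebellum, 18.1 in pons and 141 in medulla. The opioid precursor Penk was the abundant exception, with 697, 495 and 1126 TPM, so that cerebellum lay between the brainstem sites. Some peptides marked a single brainstem site: Rln3, relaxin-3 of the nucleus incertus, had 5.56 TPM in cerebellum, 533 in pons and 12.4 in medulla, and Nps, neuropeptide S, was listed at 0 in cerebellum and medulla with 33.1 TPM in pons. Nps was listed at 0 in the other 56 libraries too. Trh, thyrotropin-releasing hormone, had 4.69 TPM in cerebellum, 12.2 in pons and 1262 in medulla.

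Hox genes, which set position along the hindbrain and cord, were close to silent in cerebellum, and their levels followed the body axis. Of 30 listed genes 22 had no count in cerebellum, 9 had none in pons and 5 had none in medulla. Summed over the list, TPM was 7.41 in cerebellum, 108 in pons, 752 in medulla and 1594 in spinal cord, and between 4.01 and 6.76 in the midbrain and forebrain libraries. By this sum cerebellum lay near the sites in front of it and well under its own hindbrain neighbours. The list had 4 genes that met the size rule (Hoxa4, Hoxb2, Hoxb3 and Hoxc4), since the pons level had to reach 10 TPM as well. Hoxb2 was at least 69.1-fold lower in cerebellum than in pons, Hoxb3 at least 39.2-fold and Hoxc4 at least 33.8-fold, against a limit of 3 counts. Genes of later paralogue groups appeared in medulla with little in pons: Hoxa5 had 2.97 TPM in pons and 84.7 in medulla, Hoxa7 had 1.53 and 32.98, and Hoxb8 had 1.33 and 58.7. Hoxa4 overlaps Hoxa3 in the RefSeq annotation, so the counts of these genes may not be independent.

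**Figure D5:**
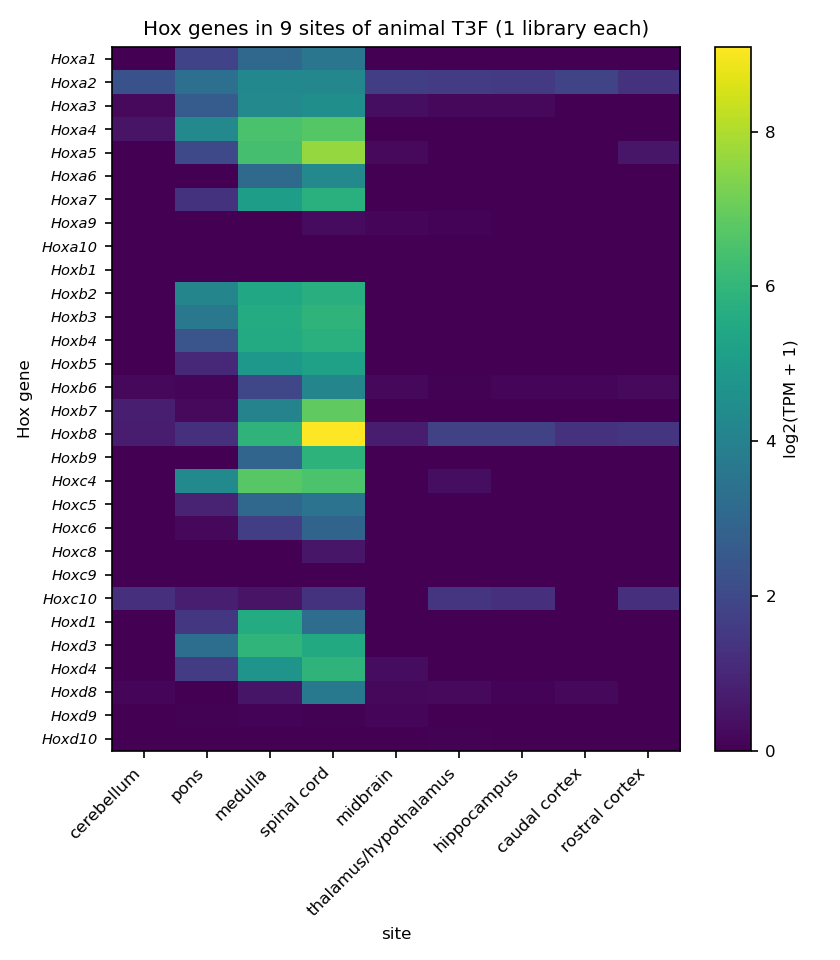
Rows are 30 Hox genes and columns are the 9 brain and cord sites of T3F, from cerebellum, pons and medulla on the left to rostral cortex on the right; colour gives log2(TPM + 1), 1 library a site. Signal is concentrated in medulla and spinal cord, is weaker in pons, and in cerebellum, where the list sums to 7.41 TPM, is little different from midbrain or cortex.

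Myelin genes were lower in cerebellum than in both brainstem sites by similar factors. Of 24 oligodendrocyte genes 22 were at least 2-fold lower in cerebellum and 0 were 2-fold higher, but only 2 (Mobp and Opalin) met the 4-fold rule. Mobp, a basic protein of central myelin, had 1226 TPM in cerebellum, 5316 in pons and 4995 in medulla. Olig1, a transcription factor of the lineage, had 208 TPM in cerebellum, 839 in pons and 768 in medulla. The median ratio of cerebellum to pons over the 23 genes with at least 10 counts at each site was 0.272, and 0.280 to medulla. Nkx6-2, which is expressed by oligodendrocytes and some neurons, was the exception at 409.9, 204 and 219 TPM, and Cnp was listed at 0 in every site. Summed myelin TPM was 5666 in cerebellum, 20769.9 in pons and 19359.7 in medulla; in the other 6 sites it ran from 4864 in midbrain to 26976 in spinal cord.

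Immune and vessel genes leaned the same way with smaller differences. Of 12 microglia genes 7 were 2-fold lower in cerebellum and 1 was 2-fold higher, and none of the list met the 4-fold rule. Csf1r, the receptor on which microglia depend, had 9.26 TPM in cerebellum, 30.7 in pons and 29.4 in medulla, whereas Tmem119, a microglial surface protein, had 66.5, 31.003 and 26.1 TPM in the same order. Vessel genes such as Cldn5, an endothelial junction protein, were lower by less than 2-fold in TPM, at 364, 612 and 571 TPM. Genes of oxidative phosphorylation (23) and ribosomal proteins (20) included none 2-fold apart, with median ratios of cerebellum to pons of 0.978 and 0.859. Hbb-bs, a beta globin gene, was also level at 1016, 1235 and 1162 TPM. The remaining lists held few genes that met the 4-fold rule with its minimum of 10 TPM. Over all genes at 10 TPM 3.33% met it as higher and 2.12% as lower. A single gene that met it is therefore given as a gene and not as a result about its list. Of 26 genes of synaptic vesicle release 1 met it as higher in cerebellum, Rims1, a scaffold of the release site, with 54.7 TPM in cerebellum, 12.4 in pons and 11.9 in medulla. Of 21 hedgehog, Notch and Wnt genes 1 was higher, the hedgehog co-receptor gene Boc, with 28.3, 4.98 and 4.58 TPM in the same order. A single gene was higher in each of the forebrain (16 genes; Ppp1r1b), germ cell (11; Spem1) and red cell (5; Slc4a1) lists, and 0 met the rule in either direction among 11 perineuronal net, 12 meningeal, 7 peripheral nerve, 10 liver, 8 acinar and 8 photoreceptor genes. Acan, the proteoglycan aggrecan of perineuronal nets, fell short of the minimum only, with 0.513 TPM in cerebellum, 8.86 in pons and 6.99 in medulla, and was lowest in cerebellum.

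Genes of the choroid plexus and the pituitary also differed between the libraries. Choroid plexus genes were by their sum highest in medulla and lowest in pons: the list of 12 genes of plexus and ependyma summed to 3198 TPM in cerebellum, 126 in pons and 8089.7 in medulla. Ttr, transthyretin, had 2997, 57.6 and 7643 TPM in the same order. It made up almost all of the sum in cerebellum and medulla, but not in pons. Pituitary and pineal genes, 8 in all, summed to 231 TPM in cerebellum, 3189 in pons and 1456 in medulla. Prl, prolactin, had 129 TPM in cerebellum, 1854 in pons and 870.01 in medulla, Gh, growth hormone, had 73.4, 1159 and 519 TPM and Pomc had 19.9, 114 and 35.6 TPM in the same order. Gh and Prl met the rule of 4-fold lower in cerebellum and are counted among the 238 genes. Neither was confined to these sites: the spinal cord of T3F had 320 TPM of Gh and 452 of Prl. Gh also had 124 TPM in the left retina of T3F, and Prl 108 in its Harderian gland. Of the other 56 libraries, 29 listed Gh at 0 and 48 listed Prl at 0. Emx1, a forebrain gene, had 0.143, 0 and 0 TPM, and Alb, albumin of liver, had 0, 0.0296 and 0.159 TPM; the acinar list of 8 genes summed to 1.33, 2.16 and 2.56 TPM. Which of the named differences tissue from outside these sites could touch was not tested, and a site and its dissection cannot be told apart with 1 library each.

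The higher and lower genes were also set against the other 6 sites of T3F. The rule itself favours a peak in cerebellum for the higher genes and forbids one for the lower genes. The counts below therefore describe the 2 sets only, and no count over all genes stands beside them. Of the 373 higher genes 341 had their highest level of 9 sites in cerebellum and 168 were at least 4-fold over each of the 8 others. Caudal cortex held the peak of 16, hippocampus of 7, rostral cortex of 5 and midbrain of 4. A forebrain site (hippocampus or either cortex) came within 2-fold of cerebellum or exceeded it for 81. Of the 238 lower genes 189 were lowest in cerebellum, with 86 at least 4-fold under each of the 8 others. These peaked in thalamus with hypothalamus (54 genes), medulla (35), midbrain (30), spinal cord (29), caudal cortex (29), hippocampus (26), pons (24) and rostral cortex (11). Spinal cord was at least 4-fold over cerebellum for 193 of them and rostral cortex for 133. Nap1l5, a nucleosome assembly protein, was an abundant lower gene with 745 TPM in cerebellum, 5297 in pons and 5181 in medulla and 6698 TPM in midbrain, and Lamp5, a membrane protein of some inhibitory neurons, had 3.46, 255 and 209.7 TPM in the 3 hindbrain sites and 279 TPM in caudal cortex; both were chosen after their values were seen.

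Across all genes the 2 brainstem libraries were more alike than either was to cerebellum. Spearman correlations of log2(TPM + 1) across genes, which are not independent replicates, were 0.900 for cerebellum with pons, 0.894 for cerebellum with medulla and 0.978 for pons with medulla. Cerebellum with the other 6 sites gave 0.861 to 0.887. Pons was 4-fold over medulla for 28 genes and medulla over pons for 76. The same rule of size, with another site in the place of cerebellum, gave 29 higher and 11 lower genes for spinal cord, 94 and 28 for thalamus with hypothalamus, 135 and 142 for midbrain and 316 and 165 for caudal cortex. All of these comparisons share the pons and medulla libraries, and the counts are given side by side without a test.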

How the data were processed

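Both tables are as deposited by the authors: one holds expected counts (estimated counts per gene, whole or not), the other TPM, a level scaled by transcript length and library total. RSEM (version not stated) and Bowtie 0.12.8 are credited in the submitters' processing notes, and the genome build is not given in the sources used here. Per the labels' protocols RNA was purified with trizol and a column and libraries were made from polyadenylated RNA. Each column matched 1 title, leaving 0 columns of values without a sample. Library depth, 17710116 to 22095366 expected counts in the 3 libraries, limits the low genes; a count of 0 allows up to 3 counts, which covers counting error only.

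Genes were called by size on TPM, at 10 TPM and 4-fold against both brainstem sites. Expected counts were rounded and tested with edgeR 4.0.16 (quasi-likelihood, TMM) in R 4.3.3, cerebellum against the mean of pons and medulla, with Benjamini-Hochberg adjustment, an adjusted p below 0.05 and a minimum change of 1 on the log2 scale. The model held 58 columns in 48 groups with 10 residual degrees of freedom, the left and right retina of T3F being summed. The SE beside a log2 fold change is its absolute value divided by the square root of the quasi-likelihood F statistic. Its spread comes from sites with libraries of different animals and holds no spread of cerebellum, pons or medulla. DESeq2 1.42.0 and limma 3.58.1 (log2(TPM + 1), pseudocount 1) were alternatives, with TMM against RLE scaling, the filter on low counts, the animal as a block, left-out libraries and a fit of 9 sites of T3F (2 residual degrees of freedom). Scripts for the tests were checked on simulated data. Libraries come from animals named in the labels, and that name is the pairing used for the block. Fits report spread between libraries, and with 1 animal here say nothing of other animals.

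The members and the 35 gene lists (23 of cell types, 12 of pathways) were chosen with earlier results of these data known. Named genes were the 10 per direction with the largest edgeR fold change among those called by size, up to 6 members of each list per direction, and any member of the granule, Purkinje, Hox, transmitter, synapse, receptor and peptide lists; others are marked as chosen after their values were seen. Some genes that the rule names are counted but not reported here. RSEM divides reads between similar transcripts, so levels of near-identical copies and overlapping genes are uncertain. Of 18970 symbols 14498 (76.43%) matched RefSeq for this species (assembly mArvNil1.pat.X), which was used only for names and for neighbouring genes. Calculations and figures used Python 3.11.15 with pandas 2.3.3, numpy 2.4.6, scipy 1.17.1 and matplotlib 3.10.9.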

Additional observations from a re-analysis of the deposited data

Results flagged for a closer look

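Listed genes were singled out where cerebellum stood at least 2-fold over one brainstem site and at least 2-fold under the other, with 10 TPM at some site and 10 counts in cerebellum. In each case the contrast with pons ran one way and the contrast with medulla the other, and the difference was not tested, since each site had 1 library. The 5 genes given here are choroid plexus genes. Ttr, transthyretin, stood at 2997 TPM in cerebellum, 57.6 in pons and 7643 in medulla, which is 52.1 times pons and 0.392 times medulla. Kl, the klotho protein, had 41.1 TPM in cerebellum, 1.44 in pons and 95.2 in medulla. Kcnj13, a potassium channel of the plexus, had 27.8 TPM in cerebellum, 1.40 in pons and 75.7 in medulla, and Clic6, a chloride channel protein, had 78.003, 8.52 and 180.1 TPM in the same order. Folr1, the folate receptor, differed least, with 14.1 TPM in cerebellum, 6.26 in pons and 33.5 in medulla.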

How the results depend on the processing

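The count of genes called by edgeR over all libraries, 0 in each direction, stayed at 0 with RLE scaling, with no filter on low counts and with the animal as a replicate block. It was also 0 in the same fit with cerebellum set against pons alone or medulla alone. A fit without 8 libraries (the T3F liver, the T3F lung, the T173F pancreas and 5 of T426) gave 0 too. That fit had only 3 residual degrees of freedom, against 10, so its 0 is no sign of stability. The block changed no call. Leaving out the T3F liver, the T3F lung and the T173F pancreas, 6 genes were higher (Cbln3, Exph5, Il16, Itpr1, Mapk13 and Rgl3) and 0 lower. DESeq2 called 48 and 45, limma 47 and 42, and the neighbouring-site fit 1075 and 1261; the common dispersion was 0.0349 in that fit and 0.495 over all libraries. Of 38 genes followed through 10 alternatives, none turned its direction. These genes were picked for large differences, and every alternative drew on the same libraries of these sites. Their direction could therefore hardly turn, and its constancy is no support for the differences.

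Of the counts by size, the 373 higher genes became 689 with no TPM minimum, 1393 at 2-fold and 159 at 8-fold. The 238 lower genes became 552 at a 1 TPM minimum, 898 with none, 791 at 2-fold and 94 at 8-fold. Leaving out a brainstem library gave 442 to 448 higher and 312 to 345 lower genes. A minimum of 10 expected counts, chosen after seeing the data, left 359 and 236.

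Each site had 1 library of 1 animal, so no difference here has been seen in a second animal. Genes under 10 TPM in pons or medulla, such as Dbh, Th, Slc6a2 and many Hox genes, were held out of the lower rule by that minimum. In the higher set, 14 of the 373 genes rested on fewer than 10 counts in cerebellum.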

Other observations

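Several genes met the size rule outside the lists; except for Aqp2 they were chosen after their values were seen. Water channel genes better known from kidney and glands were among them: Aqp6 had 176 TPM in cerebellum, 4.56 in pons and 1.51 in medulla, Aqp5 had 26.5, 0.456 and 0.164 TPM and Aqp2 had 11.6, 0 and 0.153 TPM in the same order. In the rest of the series Aqp6 was highest in the renal pelvis of T426, at 812 TPM, and in the kidney medulla of T3F, at 346 TPM. Exph5, an effector of Rab27 in vesicle transport, had 93.5 TPM in cerebellum, 1.01 in pons and 0.763 in medulla, with 18.1 TPM in caudal cortex as its next highest site of T3F. Within the red cell list Slc4a1, the anion exchanger, had 22.2 TPM in cerebellum, 1.06 in pons and 1.33 in medulla, while Hba-a2, an alpha globin gene, had 560.3, 716 and 634 TPM.

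Lower genes outside the lists included Cabp7, a calcium-binding protein, with 4.15 TPM in cerebellum, 515 in pons and 358 in medulla and 738 TPM in hippocampus. Htr2c, a serotonin receptor, had 26.96 TPM in cerebellum, 374 in pons and 418 in medulla, and Scg2, a granule protein of peptide-secreting cells, had 462, 2634 and 3379 TPM in the same order.

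Some cerebellar genes were also found in retina. Neurod1 had 2016 TPM in cerebellum, against 1369 and 1345 TPM in the right and left retina of T3F, and Pcp2 had 74.6 and 73.9 TPM in these retinas, its highest levels outside cerebellum.

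Genes that met the rule in the same direction and lie next to each other in RefSeq included En2 with Cnpy1, Zic2 with Zic5 and Ppp1r1b with Neurod2 among the higher genes, and Nefm with Nefl, Hoxb2 with Hoxb3 and Chat with Slc18a3 among the lower.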
